A study of Mus musculus with 10 samples.

Results

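Chromatin accessibility was examined at the genes of the RUNX transcription factors (*Runx1*, *Runx2*, and *Runx3*) and of their shared partner CBFβ (*Cbfb*) in group 2 innate lymphoid cells (ILC2s) of 5 mouse tissues. A region was taken as a member by position alone, where its centre lay inside 1 of the 4 genes or where the nearest RefSeq transcription start site (TSS) belonged to 1 of them. By this rule, 66 of the 50039 regions in the table were members, with 32 at *Runx1*, 20 at *Runx2*, 12 at *Runx3*, and 2 at *Cbfb*. Introns held 51 of them, promoters 5, exons 3, the sequence upstream of a gene 4, and that downstream 3. Promoter regions are those whose centre was at most 1000 bp before or 100 bp after a TSS. Position was the sole basis of the assignment, and the gene on which a region acts is not known from it.

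ILC2s are lymphocytes without antigen receptors that reside in tissues and secrete type 2 cytokines. They were sorted from lung, pancreas, small intestine (SI), large intestine (LI), and bone marrow (BM) of wild-type male C57BL/6 mice aged 6 weeks, and each tissue gave 2 libraries, which the study calls biological duplicates. A library held 50000 ILC2s, taken from a pool of 16 mice (BM, lung, pancreas) or 10 mice (LI, SI). All cells lacked lineage markers (CD3, B220, CD11b, CD11c, FcεRI). BM ILC2s were then gated by ST2 and CD25, those of LI, lung, and pancreas by CD45, CD127, ST2, and CD25, and those of SI by CD127, CD45, KLRG1, and a reduced level of Thy1, with no ST2 gate. BM ILC2s were sorted on a different instrument from the rest. A difference that sets BM or SI apart therefore cannot be told apart from the gate, and for BM also from the sorter. In ATAC-seq, the Tn5 transposase inserts adapters into open chromatin, so that the reads at a region measure how accessible it was. In such bulk libraries, fewer cells with an open region and less opening in each cell cannot be told apart. A library held between 10282987 and 32797872 counts, and levels are given as CPM (counts scaled to library size) after TMM normalization. The 100 regions with the most counts took 35.4% of the counts of LI replicate 1 and 32.4% of those of pancreas replicate 2, against 11.0% to 24.6% in the other 8 libraries.

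The promoters of 11 of 12 ILC2 marker genes held a region, and their summed level lay between 276 and 458 CPM in the 10 libraries. The promoter of *Il1rl1*, which encodes ST2, was at 4.53 and 3.55 CPM in SI and between 10.4 and 41.9 CPM in the other tissues, and that of *Klrg1* was at 11.2 and 11.5 CPM in BM and between 35.2 and 75.4 CPM elsewhere. Markers of other cells were low or had no promoter region in the table analysed. Of the T cell list, 3 of 6 genes (*Cd3e*, *Cd3g*, *Cd5*) had one, with a sum of 5.80 to 13.9 CPM. Of the B cell list it was *Cd79b* alone of 5 genes (1.41 to 8.52 CPM), of the myeloid list *Cd68* alone of 6 (7.39 to 16.5 CPM), and of the epithelial list *Cdh1* alone of 4 (2.89 to 9.49 CPM). The lists of mast cells and basophils, NK cells and ILC1s, ILC3s, and pancreas acinar cells had none.

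RUNX proteins bind DNA through a conserved Runt domain, and their binding is strengthened by CBFβ, which does not contact DNA itself. RUNX1 is required for definitive hematopoiesis, RUNX2 is best known as the master regulator of osteoblasts, and RUNX3 acts in cytotoxic T cells, ILC1s, and ILC3s. In ILC2s, the RUNX and CBFβ complex is known to restrain an exhausted-like, hyporesponsive state. Each *Runx* gene is transcribed from a distal promoter, P1, at its 5′ end and from a proximal promoter, P2, downstream of it, which give proteins with different N termini.

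Sequences of 9 intronic regions are shown, for each *Runx* gene the 3 regions outside promoters with the smallest p in the test over tissues described below, as the central 300 bp of each in the plus strand of GRCm38.p6, the RefSeq assembly that corresponds to mm10. Each region is named by the distance of its centre from the 5′ end of its gene in the direction of transcription. Capitals mark the RUNX motif letters TGTGGT or TGCGGT, or their reverse complement. The first 3 sequences lie in *Runx2*, the next 3 in *Runx1*, and the last 3 in *Runx3*.
*Runx2* +160.1 kb region, chr17:44654511-44654810: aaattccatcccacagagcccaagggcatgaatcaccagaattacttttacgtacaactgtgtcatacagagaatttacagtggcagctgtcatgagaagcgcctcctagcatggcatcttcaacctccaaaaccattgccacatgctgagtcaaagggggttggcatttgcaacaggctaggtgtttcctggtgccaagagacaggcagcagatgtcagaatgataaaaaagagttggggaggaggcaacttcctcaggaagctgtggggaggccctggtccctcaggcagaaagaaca
*Runx2* +245.4 kb region, chr17:44569218-44569517: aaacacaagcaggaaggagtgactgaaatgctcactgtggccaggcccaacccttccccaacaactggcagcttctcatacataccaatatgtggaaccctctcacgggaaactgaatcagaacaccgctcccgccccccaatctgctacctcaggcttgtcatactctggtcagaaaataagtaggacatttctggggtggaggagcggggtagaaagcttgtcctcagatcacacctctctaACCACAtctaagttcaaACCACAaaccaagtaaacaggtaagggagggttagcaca
*Runx2* +142.4 kb region, chr17:44672297-44672596: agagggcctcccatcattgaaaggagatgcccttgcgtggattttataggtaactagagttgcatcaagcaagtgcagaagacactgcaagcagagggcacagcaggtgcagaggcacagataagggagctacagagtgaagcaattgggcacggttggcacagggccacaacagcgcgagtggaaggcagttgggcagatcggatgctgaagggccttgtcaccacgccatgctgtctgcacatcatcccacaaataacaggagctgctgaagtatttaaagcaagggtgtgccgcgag
*Runx1* +77.8 kb region, chr16:92748117-92748416: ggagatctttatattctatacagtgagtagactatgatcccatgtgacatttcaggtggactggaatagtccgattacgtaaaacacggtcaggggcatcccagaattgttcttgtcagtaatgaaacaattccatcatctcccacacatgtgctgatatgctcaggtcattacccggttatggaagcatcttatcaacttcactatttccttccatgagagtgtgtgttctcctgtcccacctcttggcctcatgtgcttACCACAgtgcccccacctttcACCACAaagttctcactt
*Runx1* +184.8 kb region, chr16:92641113-92641412: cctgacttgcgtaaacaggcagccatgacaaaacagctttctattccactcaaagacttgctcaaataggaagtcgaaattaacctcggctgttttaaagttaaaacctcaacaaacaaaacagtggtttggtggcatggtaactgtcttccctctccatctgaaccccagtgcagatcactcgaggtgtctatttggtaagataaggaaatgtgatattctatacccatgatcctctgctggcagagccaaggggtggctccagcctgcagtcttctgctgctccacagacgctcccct
*Runx1* +33.0 kb region, chr16:92792948-92793247: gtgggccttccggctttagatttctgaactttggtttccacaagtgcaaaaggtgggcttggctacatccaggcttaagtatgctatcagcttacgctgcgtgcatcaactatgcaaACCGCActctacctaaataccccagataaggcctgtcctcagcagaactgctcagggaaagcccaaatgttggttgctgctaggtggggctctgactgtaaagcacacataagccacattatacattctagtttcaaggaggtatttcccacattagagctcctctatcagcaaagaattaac
*Runx3* +16.2 kb region, chr4:135136672-135136971: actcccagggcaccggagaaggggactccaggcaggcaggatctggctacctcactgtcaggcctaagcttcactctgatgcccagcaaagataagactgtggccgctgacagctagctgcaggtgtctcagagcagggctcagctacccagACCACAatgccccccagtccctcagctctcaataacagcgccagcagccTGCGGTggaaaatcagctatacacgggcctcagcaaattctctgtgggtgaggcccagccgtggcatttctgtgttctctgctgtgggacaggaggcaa
*Runx3* +48.7 kb region, chr4:135169177-135169476: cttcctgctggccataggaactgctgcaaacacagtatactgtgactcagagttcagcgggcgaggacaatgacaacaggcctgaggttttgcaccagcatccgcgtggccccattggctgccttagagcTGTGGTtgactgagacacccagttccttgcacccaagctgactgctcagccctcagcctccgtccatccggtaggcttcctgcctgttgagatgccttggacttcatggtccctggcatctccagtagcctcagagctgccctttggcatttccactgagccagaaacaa
*Runx3* +39.5 kb region, chr4:135159949-135160248: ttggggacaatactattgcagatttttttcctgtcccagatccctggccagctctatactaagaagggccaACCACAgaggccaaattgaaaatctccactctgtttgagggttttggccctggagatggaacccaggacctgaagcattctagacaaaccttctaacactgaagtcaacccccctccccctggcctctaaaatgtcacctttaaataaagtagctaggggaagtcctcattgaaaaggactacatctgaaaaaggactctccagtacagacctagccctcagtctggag

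The *Runx2* +245.4 kb, *Runx1* +77.8 kb, and *Runx3* +16.2 kb windows held 2 RUNX matches each. The *Runx1* +33.0 kb, *Runx3* +48.7 kb, and *Runx3* +39.5 kb windows held 1, and the *Runx2* +160.1 kb, *Runx2* +142.4 kb, and *Runx1* +184.8 kb windows held none. The *Runx2* +160.1 kb window held 2 AP-1 matches (TGANTCA) and 1 GATA match (TGATAA). Over all members, 36 of 66 windows (54.5%) held a RUNX match on either strand, against 34.9% of all 50039 regions. By gene, these were 20 of 32 at *Runx1*, 10 of 20 at *Runx2*, 5 of 12 at *Runx3*, and 1 of 2 at *Cbfb*. An AP-1 match was present in 30.3% of members and 18.3% of all regions, a GATA match (AGATAA or TGATAA) in 30.3% and 25.9%, an ETS match (GGAAGT) in 31.8% and 27.0%, an AHR core match (GCGTG) in 30.3% and 29.6%, and a ROR match (AGGTCA) in 9.09% and 18.0%. A window could hold several kinds of match, and a match does not show binding.

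Accessibility differed among tissues at members of all 3 *Runx* genes but at neither region of *Cbfb*. In a test over the 5 tissues (edgeR quasi-likelihood F test, Benjamini-Hochberg adjusted p under 0.05), 41 of 66 members (62.1%) differed, where 44.2% of all 49981 tested regions did. They were 18 of 32 at *Runx1*, 14 of 20 at *Runx2*, 9 of 12 at *Runx3*, and 0 of 2 at *Cbfb*. Introns held 33 of the 41 that differed and 51 of all 66 members, and promoters held 2 and 5. The median difference between the highest and the lowest tissue was 1.30 on the log2 scale over the members and 0.915 over all tested regions. At *Runx1* it was 1.31, at *Runx2* 1.49, and at *Runx3* 1.18. These counts are descriptions, and no test set the members against other regions.

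**Figure D1:**
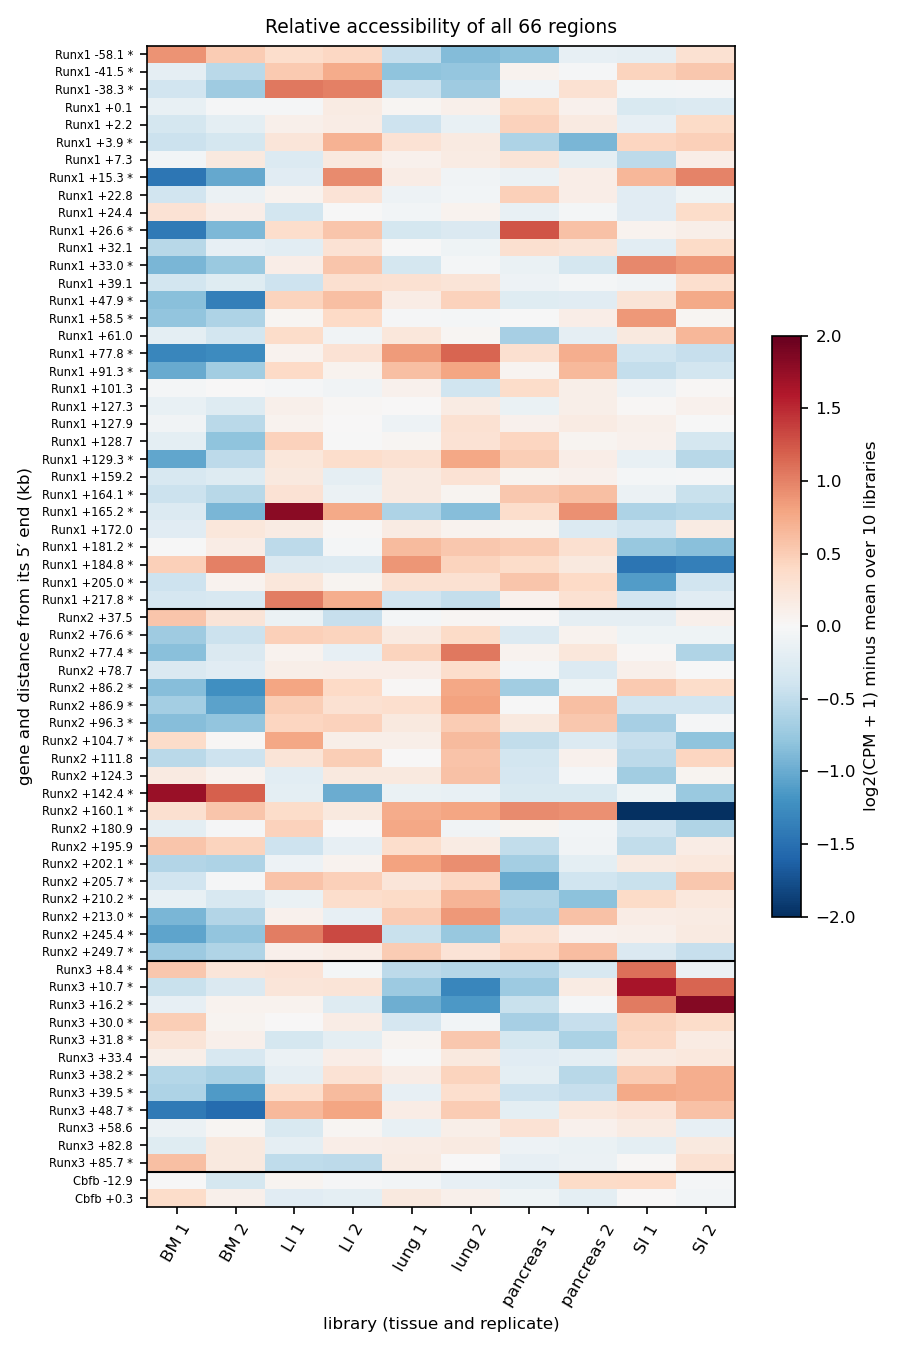
Accessibility of the 66 regions in the 10 libraries, as log2(CPM + 1) minus the mean of the region (blue, lower; red, higher). Regions are ordered by gene and by distance from its 5′ end, and an asterisk marks an adjusted p under 0.05 in the test over 5 tissues, which 41 regions had.

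BM had the lowest mean level at 32 of 66 members (48.5%), and at 26.5% of all tested regions. A tissue was called lower, or higher, where it was so in each contrast with the other 4 tissues at an unadjusted p under 0.05. BM was lower by this rule at 10 members (6 at *Runx1*, 3 at *Runx2*, 1 at *Runx3*; 15.2%), against a background of 6.63% of all regions. The number of members was 6 once trends in GC content and width were removed, 5 with adjusted p-values, and 14 with library size alone. The share over all regions called so is not given for these settings. With these trends removed, BM had the lowest level at 45.5% of members and 23.7% of all regions. With library size alone, these shares were 51.5% and 30.2%. SI was lower at 4 members (background 3.59%), lung at 2 (1.72%), and LI and pancreas at none (0.132% and 0.572%). SI was higher at 3 members (background 2.80%), LI at 3 (1.30%), lung at 2 (1.30%), BM at 1 (4.50%), and pancreas at none (1.43%). Intestinal regions, higher in both LI and SI than in each of the other 3 tissues, numbered 1 (2.18%), and 1 member was lower in the same way (0.874%). The lung share moved with the scaling, as lung had the highest mean at 19 members with TMM factors and at 33 with library size alone. Over all tested regions its share moved from 14.4% to 26.9%. Between these scalings, the log2 difference of lung from LI moved by 0.26.

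Regions spanned both start sites of *Runx1* and *Runx3*, the P2 start of *Runx2*, and the start of *Cbfb*, and of these, *Runx3* P2 alone passed the test over tissues. *Runx1* starts at P1 on chromosome 16 (GRCm38, position 92826074, minus strand). The region across P1 (chr16:92825631-92826227), which the distance rule classes as intron since its centre lies 0.1 kb into the gene, was at 78.8 and 63.5 CPM in pancreas, 61.7 and 64.5 in lung, 59.3 and 67.6 in LI, 54.2 and 58.7 in BM, and 48.2 and 49.4 in SI. Both SI libraries were below every other library, but the test over tissues gave an adjusted p of 0.128. At P2, 128.7 kb into the gene, the region was at 11.7 and 7.32 CPM in BM and between 10.3 and 19.0 CPM in the other libraries (adjusted p 0.125). With GC and width trends removed (adjusted p 0.0142), or without SI replicate 1 (0.0415), the P2 region passed the test. Scaled to width, the P1 region held 101.7 CPM per kb and the P2 region 27.2 CPM per kb on average over the 10 libraries.

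*Runx2* had no region within 1000 bp of either annotated P1 start in the table analysed, and the nearest member lay 37.3 kb from the P1 start at position 44814627 of chromosome 17. The region across P2 (chr17:44735713-44736582) was at 24.1 and 28.1 CPM in lung, 23.8 and 24.0 in LI, 23.6 and 21.6 in SI, 21.3 and 17.8 in pancreas, and 17.7 and 18.5 in BM (adjusted p 0.173). A weaker region 77.4 kb into the gene, also classed as promoter, differed among tissues (adjusted p 0.0121). It was at 6.94 and 11.1 CPM in lung and at 2.25 and 3.77 CPM in BM, a log2 difference of 1.58 ± 0.36 (SE, n = 2 per tissue). Without lung replicate 2, the test over tissues gave an adjusted p of 0.166.

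At *Runx3*, the region across P1 (chr4:135120133-135120710) is no member by the rule, because its centre lies 224 bp before the gene and the nearest annotated start is that of *Gm16225*. It was named for its position after its values were seen. It was at 72.2 and 92.0 CPM in BM, 57.7 and 81.4 in SI, 62.2 and 55.6 in lung, 55.1 and 63.9 in LI, and 58.3 and 51.2 in pancreas (adjusted p 0.119). The *Runx3* P2 region, 31.8 kb into the gene, was at 15.0 and 21.4 CPM in lung, 19.6 and 16.3 in SI, 17.4 and 15.5 in BM, 11.1 and 12.4 in LI, and 11.1 and 8.95 in pancreas. It differed among tissues (adjusted p 0.0261), with SI above pancreas by 0.83 ± 0.25 on the log2 scale, and the adjusted p rose to between 0.0544 and 0.114 without LI replicate 1, lung replicate 2, or either pancreas library. With GC and width trends removed, the difference between its highest and lowest tissue was 0.56 in place of 0.85 on the log2 scale (adjusted p 0.0906).

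*Cbfb*, which encodes the shared partner, had its main region across the start site (chr8:105170565-105171315). It was at 49.3 and 40.8 CPM in BM, 43.8 and 40.9 in lung, 38.1 and 36.5 in SI, 35.6 and 33.1 in pancreas, and 32.2 and 33.1 in LI. The groups were close, and the test over tissues gave an adjusted p of 0.162. The other region, 12.9 kb upstream, was at 1.79 to 3.71 CPM in all libraries (adjusted p 0.787).

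**Figure D2:**
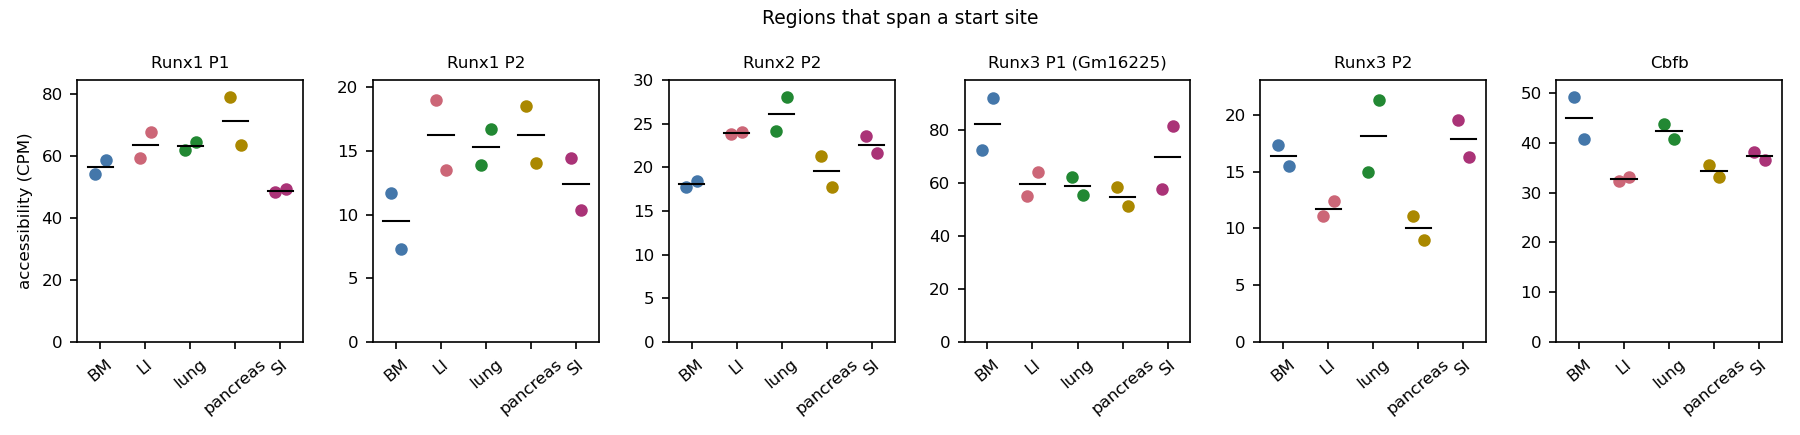
Accessibility in CPM of regions that span a start site of the *Runx* genes or *Cbfb*, with 1 point per library and a bar at the mean of the 2 libraries of a tissue. The region at *Runx3* P1 is nearest to *Gm16225*; only *Runx3* P2 passed the test over 5 tissues (adjusted p 0.0261).

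*Runx1*, the gene with the most members, held elements that were low in a single tissue as well as elements that were high in one. The +77.8 kb region (chr16:92747988-92748544) was at 19.4 and 24.2 CPM in lung, 13.1 and 17.6 in pancreas, 10.8 and 12.8 in LI, 7.51 and 7.18 in SI, and 3.57 and 3.73 in BM. Lung exceeded BM by 2.58 ± 0.26 on the log2 scale (adjusted p 7.4e-06), and both lung libraries were above all others. The difference of lung from pancreas was 0.52 ± 0.24 and missed the threshold after adjustment (adjusted p 0.231). The neighbour at +91.3 kb had its tissues in the same order, at 4.20 and 4.89 CPM in lung and 0.685 and 1.10 CPM in BM (adjusted p over tissues 0.00283).

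The +184.8 kb region of *Runx1* (chr16:92641009-92641516) was at 24.5 and 35.9 CPM in BM, 33.0 and 24.1 in lung, 22.6 and 20.1 in pancreas, 14.0 and 14.2 in LI, and 5.68 and 6.10 in SI. It was lower in SI than in each other tissue, with a log2 difference of 1.26 ± 0.25 between LI and SI (adjusted p 0.00453), and it is the member that was lower in both intestinal tissues. SI was also lowest at +181.2 kb, with 2.60 and 2.40 CPM against 3.23 to 8.43 CPM elsewhere, and at +205.0 kb, with 23.1 and 39.0 CPM against 38.1 to 76.0 CPM. The groups do not overlap at +181.2 kb but do at +205.0 kb, where SI replicate 2 lay above BM replicate 1.

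The +33.0 kb region (chr16:92792840-92793354) had the opposite order at its ends, with SI highest and BM lowest. It was at 35.9 and 33.5 CPM in SI, 19.9 and 27.0 in LI, 16.2 and 13.9 in pancreas, 13.9 and 17.6 in lung, and 9.05 and 10.4 in BM (adjusted p over tissues 9.29e-05). SI exceeded BM by 1.83 ± 0.23 and lung by 1.14 ± 0.22 on the log2 scale (adjusted p 0.00163 for lung). The region was higher in SI than in LI by 0.56 ± 0.22, which missed the threshold after adjustment (adjusted p 0.132). It is the only member higher in both intestinal tissues, and no member was called so, or lower, with adjusted p-values or without LI replicate 2. A region 0.9 kb before it, at +32.1 kb, was at 30.5 to 59.1 CPM with no difference past the threshold (adjusted p 0.196).

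BM was called lower than each other tissue at 6 members of *Runx1*, at unadjusted p-values. They lie at +15.3, +26.6, +33.0, +47.9, +58.5, and +77.8 kb, all between P1 and P2. After adjustment, BM missed the threshold at +33.0 kb against pancreas (adjusted p 0.0561). At +58.5 kb it missed against lung (0.101) and pancreas (0.064). At +26.6 kb, BM was at 3.77 and 5.84 CPM, lung at 8.98 and 9.47, SI at 12.4 and 12.8, LI at 15.3 and 17.7, and pancreas at 29.5 and 18.1 (BM against pancreas, log2 difference -2.31 ± 0.29, adjusted p 4.0e-05). At +15.3 kb, BM was at 3.23 and 4.65 CPM and the other libraries at 8.80 to 21.8 CPM. LI was called higher than each other tissue in 2 regions, with adjusted p-values against pancreas of 0.0886 (-38.3 kb) and 0.3 (+217.8 kb). At -38.3 kb, upstream of the gene, LI was at 9.59 and 9.21 CPM and the other libraries at 2.12 to 5.29 CPM, and at +217.8 kb LI was at 6.10 and 4.82 CPM and the others at 1.52 to 3.34 CPM. Further regions differed in other ways. At -58.1 kb, BM was highest, with 9.45 and 6.99 CPM against 3.10 and 2.07 in lung (adjusted p over tissues 0.00454). At +3.9 kb, pancreas was lowest, with 13.0 and 10.3 CPM against 23.4 to 33.7 CPM in LI, lung, and SI (0.000564). At +165.2 kb, LI was at 9.85 and 4.26 CPM and pancreas at 2.94 and 4.85, with 0.644 to 1.57 CPM in BM, lung, and SI (0.000318). The most accessible region outside promoters, at +7.3 kb (chr16:92818515-92819049), was at 47.4 to 81.9 CPM, or 129.8 CPM per kb, and did not pass the test (adjusted p 0.826).

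*Runx2* held the member that differed most clearly. The +160.1 kb region (chr17:44654395-44654925) was at 58.5 and 57.3 CPM in pancreas, 51.0 and 52.8 in lung, 37.7 and 44.6 in BM, 39.0 and 34.4 in LI, and 4.09 and 5.71 in SI. Both SI libraries lay far under all others, with log2 differences between 2.89 ± 0.22 (LI) and 3.55 ± 0.22 (pancreas), and the test over tissues gave an adjusted p of 4.28e-07. Among the other 4 tissues, no difference between neighbours in this order passed the threshold (adjusted p 0.255 to 0.695). The sequence of this region, printed first above, held no RUNX match in its central 300 bp. SI is also the tissue without an ST2 gate and with the lowest *Il1rl1* promoter, and the part of the gate in this result was not tested.

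The +245.4 kb region (chr17:44569035-44569700) of *Runx2* was highest in LI. It was at 26.5 and 32.8 CPM in LI, 15.6 and 13.4 in pancreas, 13.5 and 14.3 in SI, 8.94 and 6.98 in lung, and 5.53 and 6.81 in BM (adjusted p over tissues 1.61e-05). LI exceeded pancreas by 1.03 ± 0.24 (adjusted p 0.0249) and SI by 1.09 ± 0.23 (adjusted p 0.00832) on the log2 scale. LI replicate 1, at 26.5 CPM here, is a library in which few regions took a large share of the counts. Without LI replicate 1, the log2 difference between LI and BM was 2.41, against 2.27 with all 10 libraries. The part of the large share of counts in this result was not tested.

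The +142.4 kb region was the member that was higher in BM. It was at 8.42 and 5.52 CPM in BM and at 0.434 to 1.69 CPM in the other 8 libraries, with a log2 difference of 2.13 ± 0.51 between BM and lung (adjusted p 0.00724). BM was called lower at 3 other members, at +86.2, +96.3, and +213.0 kb, at unadjusted p-values. After adjustment, BM missed the threshold at +86.2 kb against pancreas (adjusted p 0.112) and at +96.3 kb against SI (0.0963). At +213.0 kb it missed against LI (0.115), pancreas (0.099), and SI (0.0537). The +96.3 kb region is the widest of the gene with 1106 bp, and was at 16.9 and 17.6 CPM in BM, 19.3 and 30.9 in SI, and 35.9 to 46.0 CPM in LI, lung, and pancreas. Lung was called higher at +202.1 kb, with 7.25 and 7.98 CPM against 1.94 to 4.46 CPM (adjusted p 0.089 against SI). The most accessible region outside the *Runx2* promoters lay at +37.5 kb, where the overlapping gene *Supt3* starts. It was at 33.1 to 68.1 CPM (79.0 CPM per kb) with an adjusted p over tissues of 0.0614 (0.0212 with DESeq2, and 0.0381 and 0.0279 without SI replicate 1 and 2), and cannot be assigned to *Runx2* rather than *Supt3*.

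*Runx3* had its highest levels in SI at 7 of 12 members and its lowest in SI at none, where SI was highest at 24.0% and lowest at 20.3% of all tested regions. Between P1 and P2, 2 weak regions were called higher in SI than in each other tissue and lower in lung, at unadjusted p-values. At +16.2 kb (chr4:135136571-135137071), the region was at 5.58 and 10.5 CPM in SI, 1.86 and 2.35 in BM, 2.35 and 1.69 in LI, 1.35 and 2.16 in pancreas, and 0.627 and 0.442 in lung (adjusted p over tissues 5.83e-05). SI exceeded BM by 1.93 ± 0.42 on the log2 scale (adjusted p 0.00307), and lung against pancreas gave an adjusted p of 0.0582. At +10.7 kb, SI was at 7.17 and 4.84 CPM, LI at 2.09 and 2.13, and BM at 0.930 and 1.15. Pancreas was at 0.589 and 1.94 CPM and lung at 0.588 and 0.0552, and the count in lung replicate 2 was 2. Adjusted p-values at +10.7 kb were 0.141 for SI against LI, 0.105 for lung against BM, and 0.154 for lung against pancreas. The *Cd79b* and *Cd68* promoters, the only regions of the B cell and myeloid lists, were highest in SI too (8.52 and 6.79 CPM, and 16.5 and 15.4 CPM), and the part of other cells in these regions was not tested.

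Downstream of P2, the +39.5 kb region (chr4:135159832-135160365) was at 29.2 and 28.6 CPM in SI, 21.7 and 26.7 in LI, and 15.0 and 21.7 in lung. It was at 12.5 and 12.1 CPM in pancreas and at 10.7 and 7.22 CPM in BM (adjusted p over tissues 0.00029). The difference between SI and LI missed the threshold (adjusted p 0.557), and SI exceeded pancreas by 1.23 ± 0.25 on the log2 scale. At +48.7 kb (chr4:135169019-135169634), BM stood alone. It was at 2.50 and 2.21 CPM in BM, 7.13 and 9.71 in pancreas, 9.25 and 12.2 in lung, 10.2 and 12.9 in SI, and 13.5 and 15.0 in LI, with BM lower than pancreas by a log2 difference of 1.82 ± 0.29 (adjusted p 0.000357). Among the other 4 tissues, no difference between neighbours in this order passed the threshold after adjustment.

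Far downstream of *Runx3*, the +82.8 kb region (chr4:135203217-135203750) was the strongest member of the gene outside promoters, with 46.2 to 63.1 CPM in all libraries and no difference past the threshold (adjusted p 0.773). Its neighbour at +85.7 kb differed (adjusted p 0.0113), at 47.9 and 35.9 CPM in BM and 21.7 and 21.5 CPM in LI.

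**Figure D3:**
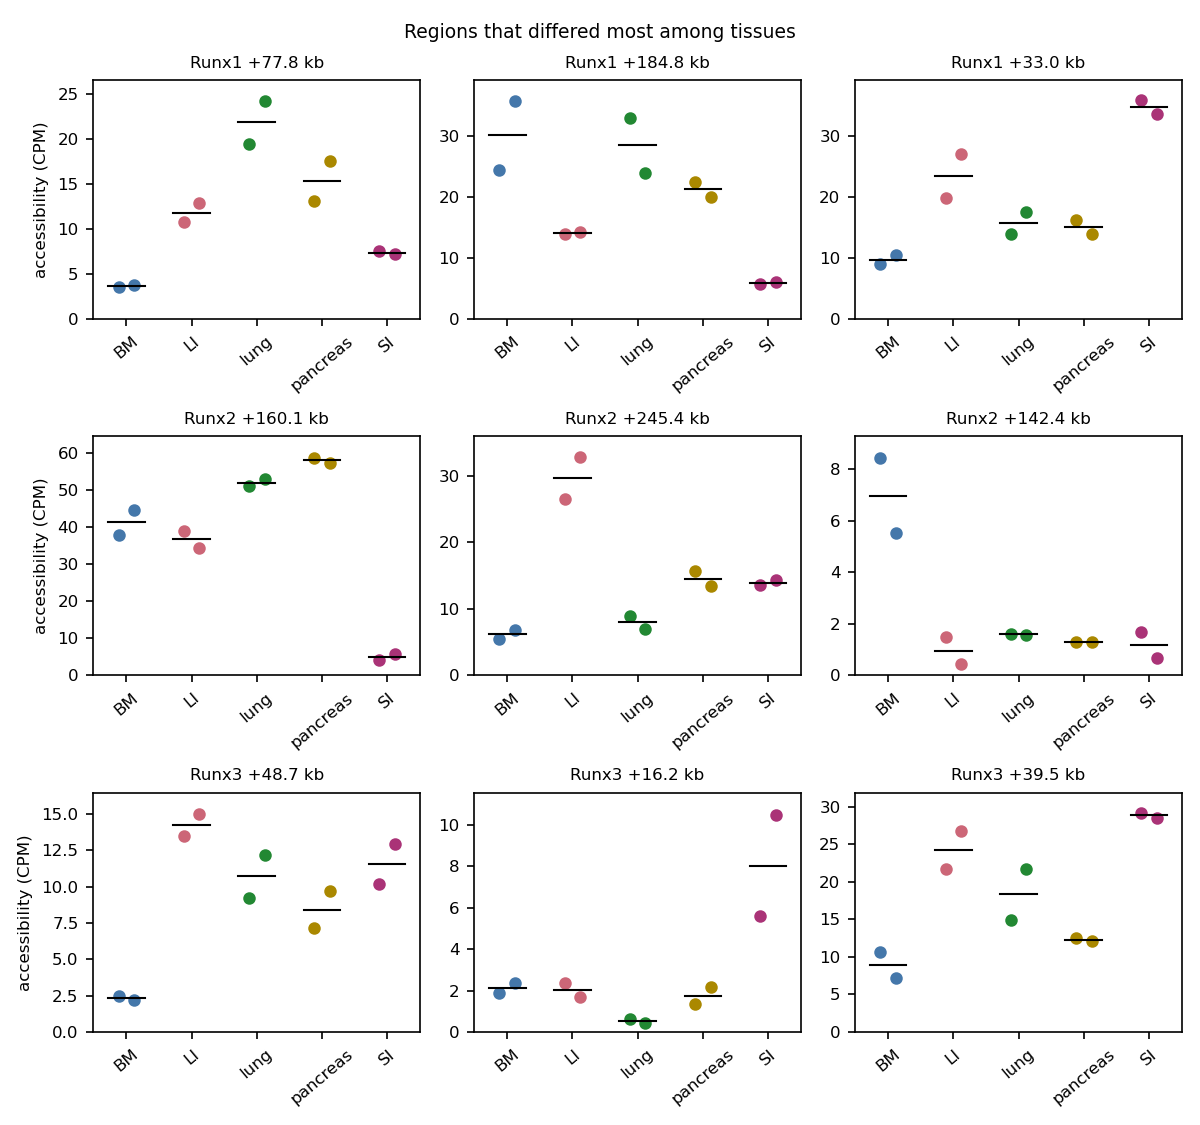
Accessibility in CPM of the 3 regions of each *Runx* gene with the smallest p in the test over 5 tissues, with 1 point per library and a bar at the mean of the 2 libraries. At *Runx2* +160.1 kb, the SI libraries are at 4.09 and 5.71 CPM, under all other libraries (34.4 to 58.5 CPM).

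**Figure D4:**
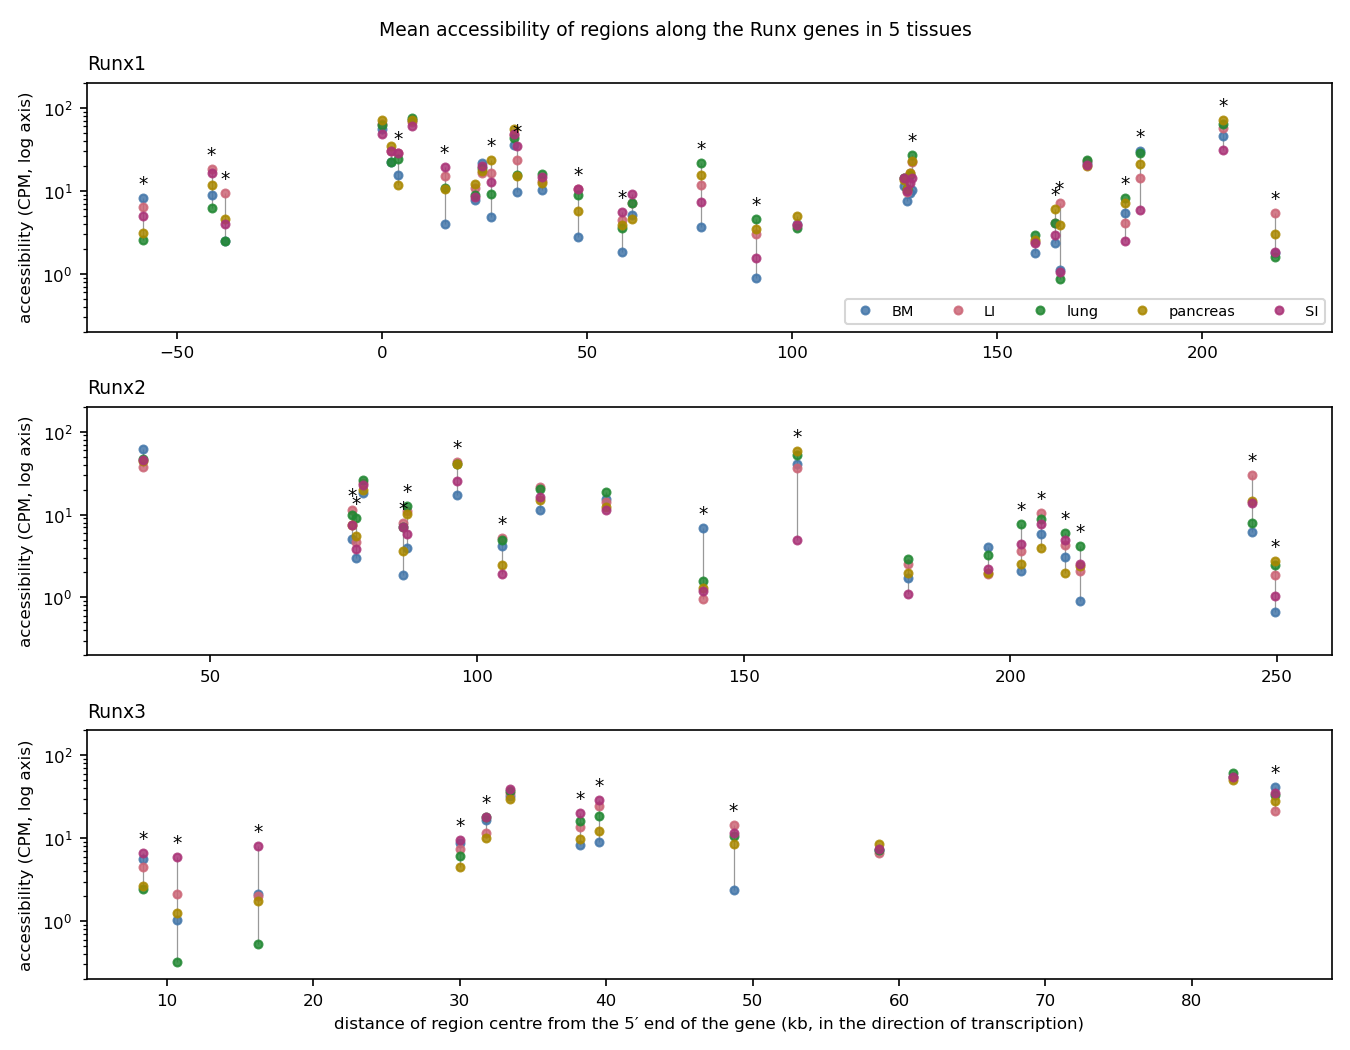
Mean accessibility (CPM, log axis) of each region in the 5 tissues along *Runx1*, *Runx2*, and *Runx3*, against the distance of its centre from the 5′ end of the gene in kb. A grey line joins the lowest and the highest tissue, an asterisk marks an adjusted p under 0.05 over tissues, and the widest gap between tissues at *Runx2* is at +160.1 kb.

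Summed over its regions, each gene showed smaller differences than its most variable element, which follows from summing, apart from scaling. Sums are given as CPM of the counts assigned to genes, where a region that belongs to 2 genes counts for both, so they are on another scale than the values of single regions. *Runx1* was at 331.5 and 387.1 CPM in BM, 392.3 and 468.8 in SI, 485.1 and 506.6 in lung, 477.1 and 557.7 in LI, and 554.7 and 496.0 in pancreas. Both BM libraries were the lowest, but the test over tissues missed the threshold (adjusted p 0.0676). In the contrast of its ends, pancreas exceeded BM by 0.55 ± 0.17 on the log2 scale (adjusted p 0.0306). *Runx2* differed (adjusted p 0.00786), where 37.3% of 22133 genes did. It was at 146.1 and 176.5 CPM in SI, 172.2 and 171.9 in BM, 213.1 and 234.5 in pancreas, 240.8 and 241.7 in LI, and 233.0 and 276.0 in lung, and lung exceeded SI by 0.66 ± 0.15 on the log2 scale. The difference between BM and SI missed the threshold (adjusted p 0.717), and BM and SI lay below the other 3 tissues in every library. With GC and width trends removed, the adjusted p was 0.0699.

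*Runx3* was at 202.6 and 214.4 CPM in SI, 173.0 and 195.9 in lung, 157.8 and 190.4 in LI, 156.2 and 148.2 in BM, and 147.8 and 149.9 in pancreas (adjusted p 0.061). SI had the highest libraries, and no difference between neighbouring tissues in this order passed the threshold (adjusted p 0.347 to 0.9). The contrast of its ends did, with SI above pancreas by 0.49 ± 0.15 on the log2 scale (adjusted p 0.033). *Cbfb* was at 30.3 to 41.1 CPM in all libraries (adjusted p 0.36). Per kb of region, the tissue means of these sums lay between 24.8 and 31.1 CPM for *Cbfb*, 20.6 and 30.1 for *Runx1*, 21.1 and 29.6 for *Runx3*, and 13.7 and 21.5 for *Runx2*.

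**Figure D5:**
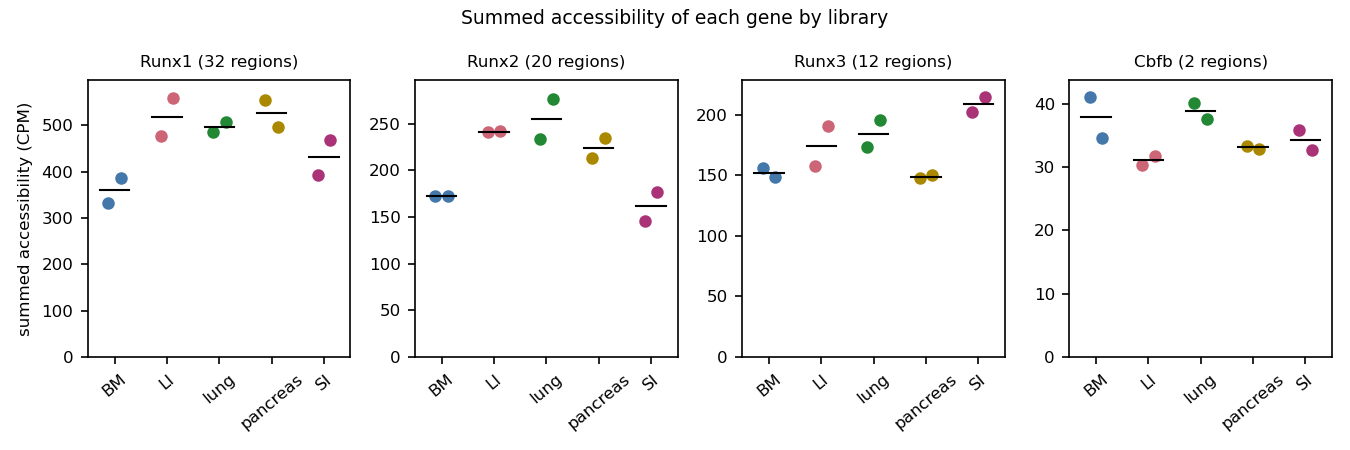
Summed accessibility (CPM of counts assigned to genes) of *Runx1*, *Runx2*, *Runx3*, and *Cbfb* in each library, with a bar at the mean of the 2 libraries of a tissue. *Runx2* is lowest in SI and BM (146.1 to 176.5 CPM), and *Runx3* is highest in SI (202.6 and 214.4 CPM).

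The genes whose summed level followed each member most closely over the 10 libraries are given as a description. For *Runx1* they were *Itgav*, *Gm51561*, and *Unc5b* (Pearson r 0.983 to 0.971), for *Runx2* *Gm5544*, *Mir6950*, and *Gm35155* (0.971 to 0.967), for *Runx3* *Gm33413*, *Mgat4a*, and *Myrip* (0.961 to 0.948), and for *Cbfb* *Nbeal2*, *Egln1*, and *Ddrgk1* (0.930 to 0.920). The points share libraries and depth, so these values carry no p. *Itgav*, an integrin chain, averaged 132 CPM in BM, 186 in SI, 265 in lung, 268 in LI, and 311 in pancreas.

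RUNX proteins act with ETS, GATA, and corepressor proteins of the TLE and ETO families. Of 24 partners and cofactors, 23 had a region, and 9 (39.1%, against 37.3% of all genes) differed among tissues, with the highest level in SI for 4, in BM for 3, and in LI and lung for 1 each. *Bcl11b*, a zinc-finger factor of T cells and ILC2s, was at 119 and 132 CPM in BM, 122 and 173 in SI, 187 and 211 in LI, 203 and 196 in pancreas, and 231 and 267 in lung (adjusted p 0.00204). *Cbfa2t3*, a corepressor of the ETO family, was at 49.4 and 19.8 CPM in SI, where the libraries were far apart, and at 10.2 to 31.1 CPM elsewhere (adjusted p 0.00294). The 9 that differed also included *Myb*, *Tle1*, *Spi1*, *Ep300*, *Cbfa2t2*, *Smurf2*, and *Sin3a*. Among the partners that did not pass the test were *Gata3*, *Ets1*, and *Tcf7* (adjusted p 0.268, 0.243, and 0.517).

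Of 19 genes known to be bound by or to depend on RUNX factors in lymphocytes or myeloid cells, 17 had a region and 11 (64.7%, against 37.3% of all genes) differed. The highest level was in SI for 4, in BM, lung, and pancreas for 2 each, and in LI for 1. *Gzmb*, which encodes the cytotoxic protease granzyme B, was at 3.26 and 2.54 CPM in BM, 9.72 and 6.47 in lung, 10.4 and 15.5 in SI, 12.7 and 23.2 in pancreas, and 17.6 and 18.5 in LI (adjusted p 0.000105). *Prf1*, which encodes perforin, was at 18.1 and 15.1 CPM in SI, 10.2 and 13.6 in LI, 7.65 and 7.13 in BM, 2.81 and 3.66 in pancreas, and 4.42 and 1.35 in lung (adjusted p 0.000297). The median difference between the highest and the lowest tissue was 0.738 on the log2 scale for this list, 0.529 for the partners, and 0.655 over all genes.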

How the data were processed

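Per the labels and the methods of the study, the authors aligned reads against mm10 (Bowtie2 2.2.9, unique hits only), called peaks with MACS2 (2.1.1) in each library, kept those found in both libraries of a tissue, merged them with HOMER, and counted reads with bedtools. The deposited values are raw counts per merged region and library. Removal of duplicates and a shift for the transposase are not given in the sources used here.

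Regions were assigned with the RefSeq annotation of GRCm38.p6 (names and lengths match mm10). The 49981 regions with at least 1 count were fitted with edgeR 4.0.16 (TMM factors, glmQLFit, glmQLFTest, tissue as the factor, 10 libraries in 1 fit), and gene sums likewise over 22133 genes. Printed ± values of log2 differences are standard errors, and adjusted p-values without another name come from these fits, over all regions or all genes. DESeq2 1.42.0 served as an alternative. GC and width trends were removed by loess (span 0.3). The scripts were tested on simulated counts. Libraries of a tissue differed by more than counting noise (chi-square per degree of freedom 12.8 to 56.0). The named regions were all promoters, the 3 other regions of each gene with the smallest p, and the most accessible per kb; other calls are named with their set. The lists, members, and tests were chosen with earlier results of these data known. Intervals and tests on reads without molecular identifiers cover no PCR duplicates.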

Additional observations from a re-analysis of the deposited data

How the results depend on the processing

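Across the other settings tried with all 10 libraries, 41 to 43 members differed among tissues, where 43.2% to 49.1% of all tested regions did. With the replicate block, 42 members differed. Each library was also left out in turn. The number of members that differed then moved further, and so did the share of all tested regions. Same-numbered libraries deviated together in some pairs of tissues and apart in others (correlations -0.185 to 0.188). Mixed signs do not show whether the numbers pair the libraries, and a shared factor was not tested. Members higher in 1 tissue numbered 9, and 3 with adjusted p-values (5 to 11 without a library, with 5 without LI replicate 1 or pancreas replicate 1). Members lower in 1 tissue numbered 16, and 10 with DESeq2 on 4 libraries per pair and 7 with adjusted p-values (12 to 17 without a library). Intestinal members numbered 2, and 0 with adjusted p-values (0 to 3 without a library: 0 without LI replicate 2, and 1 without lung replicate 1 or either pancreas library). The replicate block changed none of these 4 counts by over 1.5 times. The background shares given above for calls of single tissues and of intestinal regions hold for the main fit with unadjusted p-values alone.

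For summed accessibility, the threshold here is that of the test over tissues. Values in parentheses are the log2 difference between the highest and the lowest tissue. The test of *Runx1* (0.548) missed the threshold in the main fit. It passed with DESeq2 on 10 libraries (0.541) and without LI replicate 1 or SI replicate 2. The difference was 0.441 to 0.682 without a library, and 0.309 with GC and width trends removed (adjusted p over tissues 0.244). The test of *Runx2* (0.658) missed the threshold with GC and width trends removed (0.46). That of *Runx3* (0.487) passed with library size alone (0.781), DESeq2 (0.494), and GC and width trends removed (0.504), and without either LI library (0.487 each; 0.445 to 0.527 without a library, the ends being without an SI library). That of *Cbfb* (0.321) passed with library size alone (0.585). Its difference was 0.151 with GC and width trends removed (adjusted p over tissues 0.808). The cause was not tested. Of 304 values of the named regions under other settings, 293 kept their side of the threshold, 5 gained it, 6 lost it, and none reversed. The filter at 10 counts removed no region. With curated transcripts alone, 77 regions were members, and 45 by the nearest start alone. The fits without 1 library assume that the lone library varies like the others, and a difference near the threshold, as at *Runx3* P2, rests on 2 libraries per tissue.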
